A study of Mus musculus with 22 samples.

Results

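The genes described here are 10 genes of the antioxidant response that the transcription factor NRF2 controls: Nfe2l2, Keap1, Hmox1, Txnrd1, Srxn1, Nqo1, Osgin1, Slc7a11, Gclc and Gclm. They were chosen by name, through the accession each array probe carries, out of 20018 genes that could be named on the array. All 10 were measured, by 11 probes, since Hmox1 has 2. The cells were FE1, an epithelial line that arose spontaneously in culture from the lung of a transgenic Muta Mouse, so every array comes from 1 line, grown in medium with epidermal growth factor. Mitsui7, a preparation of long multi-walled carbon nanotubes, was added for 24 h. The low dose group (6 arrays) received 12.5 µg/ml, the medium dose group (5 arrays) 25 µg/ml and the high dose group (6 arrays) 100 µg/ml, and control cells (5 arrays) received 0 µg/ml for the same time. The comparisons ask which of these genes differed between exposed and control cells at each dose, and whether the doses differed from each other.

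NRF2, the product of Nfe2l2, is a transcription factor that is made continuously and destroyed continuously. In resting cells the adaptor KEAP1 holds it on a ubiquitin ligase, and reactive cysteines on KEAP1 release it when electrophiles or oxidants modify them. Released NRF2 pairs with small MAF proteins and binds antioxidant response elements in the promoters and enhancers of its targets, which rebuild glutathione and reduced thioredoxin, remove quinones and break down haem. Because this control acts largely on the protein, the mRNA of Nfe2l2 and Keap1 does not by itself report NRF2 activity. Several targets also answer to other factors, such as BACH1 at Hmox1 and ATF4 at Slc7a11. In the lung, NRF2 is known for its part in the defence against inhaled oxidants and particles.

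Promoter sequences are shown first because the 10 genes are grouped by a shared regulator. RefSeq promoter windows on GRCm38.p6 were at hand for 8 of the 10 genes, with 10 windows in all, since Txnrd1 has 3; Hmox1 and Gclc have none in that table. The 250 bases before the start were searched on both strands for the core of the antioxidant response element, TGACNNNGC, and for the AP-1 site TGANTCA, which reads the same on both strands. The 2 patterns can overlap, since both begin with TGA. The element core was found in 3 of the 10 windows, in Nfe2l2, Gclm and 1 of the 3 of Txnrd1, and in 10.2% of all 32851 promoter windows of that length. The AP-1 pattern was found in 2 of the 10 windows, of Srxn1 and Osgin1, and in 6.75% of all windows. The element core as searched requires a C after TGA and leaves out runs with TGAG. The run TGAGTCAGC in the Srxn1 window was therefore counted for AP-1 only. A match is a run of letters and not a shown binding site, and enhancers farther away lie outside these windows.

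The 4 windows below belong to genes on which the results turn: Txnrd1 and Slc7a11, which were higher at all doses, Srxn1, which lay above the controls without reaching the threshold of fold, and Osgin1, which was lower. Capitals mark a match to either pattern, and each run reads 5′ to 3′ along the gene's strand.
Txnrd1 (chr10:82858956-82859205, plus strand, element core 92 bases before the start): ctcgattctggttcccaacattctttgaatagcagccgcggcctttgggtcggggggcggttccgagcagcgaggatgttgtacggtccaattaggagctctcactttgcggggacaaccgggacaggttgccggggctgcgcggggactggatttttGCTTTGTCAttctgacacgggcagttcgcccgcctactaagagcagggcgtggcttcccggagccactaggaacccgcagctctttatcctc
Slc7a11 (chr3:50443614-50443863, minus strand, no match): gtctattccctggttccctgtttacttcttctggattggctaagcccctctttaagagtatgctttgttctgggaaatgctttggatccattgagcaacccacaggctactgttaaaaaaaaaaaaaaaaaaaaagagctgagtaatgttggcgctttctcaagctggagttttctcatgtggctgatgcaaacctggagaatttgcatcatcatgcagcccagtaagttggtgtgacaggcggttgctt
Srxn1 (chr2:152105274-152105523, plus strand, AP-1 pattern 102 and 45 bases before the start): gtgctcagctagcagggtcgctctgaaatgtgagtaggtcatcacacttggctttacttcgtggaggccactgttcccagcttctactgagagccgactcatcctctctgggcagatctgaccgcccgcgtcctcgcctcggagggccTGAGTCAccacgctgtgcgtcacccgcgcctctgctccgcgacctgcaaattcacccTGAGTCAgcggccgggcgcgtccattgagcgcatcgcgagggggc
Osgin1 (chr8:119436897-119437146, plus strand, AP-1 pattern 97 bases before the start): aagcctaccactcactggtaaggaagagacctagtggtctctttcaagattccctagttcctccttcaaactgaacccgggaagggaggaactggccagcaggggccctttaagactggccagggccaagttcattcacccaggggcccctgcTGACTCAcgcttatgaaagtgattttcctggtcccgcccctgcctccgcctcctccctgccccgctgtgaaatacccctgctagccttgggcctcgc

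Cy5 marked the RNA of 1 sample per array and Cy3 marked a pool of RNA from mouse cell lines that was shared by all arrays, so every value is a log2 ratio of sample to pool and not an absolute level. Ratios are compared between groups of arrays for the same probe, never between genes. The 22 arrays lay on 5 slides, of which slides 1 to 4 held arrays of every group and slide 5 had 1 array of the low and 1 of the high dose. Between 23688 and 39139 probes per array were detected, that is above the negative control spots. Low dose replicate 1 and medium dose replicate 2 stood apart: over 16349 probes the mean correlation of each with its own group was -0.21, while low dose replicate 1 had 0.24 with the medium dose arrays and medium dose replicate 2 had 0.07 with the low dose arrays. Whether these 2 labels were exchanged was not tested, and both arrays were kept as labelled, with the results that change without them given below. Other exposed arrays also lay closer to another group than to their own. Low dose replicate 2 had -0.0075 with its own group and 0.18 with the controls. Medium dose replicates 1, 3 and 5 had 0.18, 0.20 and 0.28 with the high dose arrays. With their own group they had 0.08, 0.18 and 0.14. High dose replicate 6 had 0.30 with the medium dose arrays and 0.28 with its own group. Of the epithelial markers, Cdh1 was detected on 0 and Epcam on 10 of the 22 arrays, while Krt7, Krt8 and Krt18 were detected on all 22; of 7 mesenchymal markers, all were detected and 3 were called lower at the low dose and 4 at both other doses. Of all named genes tested, 3.02% were called lower at the low, 4.64% at the medium and 6.38% at the high dose. Lower calls were not limited to mesenchymal markers. The epithelial marker Krt7 was called lower at the medium and high dose (-0.79 and -0.85) and the alveolar type I marker Hopx at all doses (-1.33, -1.59 and -2.08). Most markers of these other lists were not called. At the high dose 5 of 6 epithelial, 3 of 4 alveolar type I and 5 of 5 alveolar type II markers were not called. Of these lists, 4, 3 and 3 markers were detected for that comparison. The mean log2 ratio of the 7 mesenchymal markers ranged from -0.33 to -0.18 over the controls and from -1.56 to -0.87 over the high dose arrays, and the part of these markers in the results on the NRF2 genes was not tested. In a bulk culture, fewer cells that express a gene and less of its RNA per cell cannot be told apart. Per the methods the cells were exposed in 3 separate experiments, fewer than the arrays of a group, and which arrays came from which experiment is not given. Arrays of 1 experiment may not be independent, so the SEs and p-values measure the spread between arrays, which may be partly technical, and may be too small.

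Of the 10 NRF2 genes, Hmox1, Txnrd1 and Slc7a11 were up-regulated at every dose, Osgin1 was down-regulated at the medium dose, and the other 6 were called at no dose. A gene was called when its brightest probe changed by at least 1.5-fold, its adjusted p in limma was at most 0.05 (Benjamini-Hochberg over all 55681 probes) and it was detected on at least 4 arrays of a group. All 11 probes were detected on all 22 arrays, so none of the 10 genes dropped out at that filter. At the low dose 3 of 10 were called, all higher, beside 5.19% of the 13620 named genes tested (2.17% higher, 3.02% lower). At the medium dose 3 were called higher and 1 lower, beside 8.85% of 13393 genes (4.2% higher, 4.64% lower). At the high dose 3 were called, all higher, beside 11.8% of 14008 genes (5.38% higher, 6.38% lower). The 10 genes were chosen with earlier results of these data known, so these shares do not test for an excess of calls. The median log2 change of the 10 genes was 0.30 at the low, 0.33 at the medium and 0.48 at the high dose, with 6 genes above 0 and 4 below 0 each time, and the median of all genes was within 0.01 of 0 at each dose. Loess normalization sets the ratios of each array around 0, so the median of all genes was largely fixed by the processing. After median centring in place of loess, it was -0.11, 0.02 and -0.03, and that of the 10 genes 0.15, 0.42 and 0.43. With loess, the adjusted p alone was passed by 3, 5 and 8 of the 10 genes, beside 9.58%, 14.7% and 20.6% of all genes. Without low dose replicate 1 and medium dose replicate 2, the same genes were called at each dose, with Nfe2l2 added at the medium dose. The 3 comparisons share their 5 control arrays, so they are not independent of each other. With replicate numbers in the fit instead of slides (a replicate block), 5 genes were called at the high dose, as Gclc (0.63, limma adjusted p 0.00194) and Osgin1 (-0.60, adjusted p 0.00265) joined the 3. Leaving out control replicate 1 gave 5 and leaving out control replicate 5 gave 6 calls at the high dose, against 3 with all arrays.

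**Figure D1:**
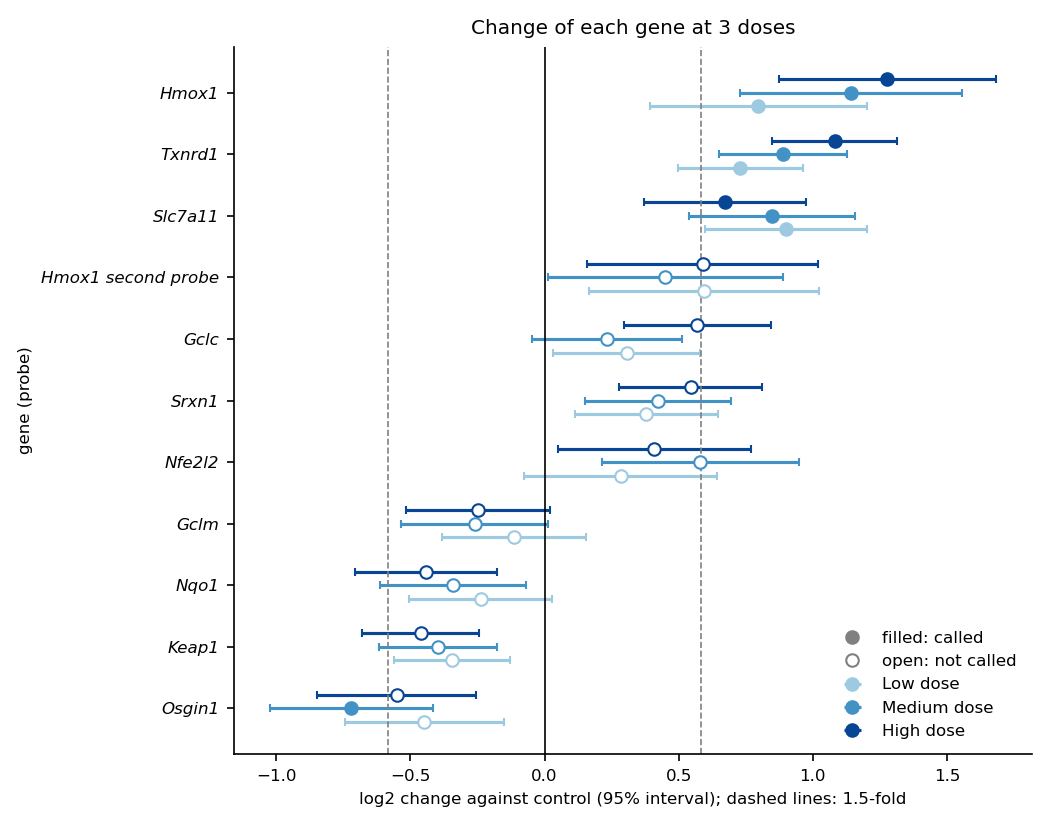
Log2 change of each gene against control (x axis) at the low, medium and high dose, with 95% intervals from limma; filled points were called and the dashed lines mark a 1.5-fold change. Hmox1, Txnrd1 and Slc7a11 lie to the right of the line at all 3 doses, and Osgin1 is the gene farthest to the left, at -0.72 at the medium dose.

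The regulators themselves were not called at any dose. Nfe2l2 read -0.50, -0.70, -0.37, -0.33 and -1.67 on the 5 control arrays. Its log2 ratios were -0.95 to -0.0011 (median -0.52) at the low dose and -0.61 to 0.01 (median -0.31) at the high dose. The 5 medium dose arrays gave 0.05, -0.53, 0.10, 0.09 and -0.37. The groups overlapped at every dose, and control replicate 5 was far below the other controls. The change of Nfe2l2 was 0.28 ± 0.17 (SE), 0.58 ± 0.18 and 0.41 ± 0.17, with limma adjusted p of 0.52, 0.0602 and 0.192. Without low dose replicate 1 and medium dose replicate 2, its medium dose change was 0.69 and was called (adjusted p 0.017), as it also was without medium dose replicate 2 alone (0.70) or without control replicate 4 (0.70). On the 4 slides that held both groups, its high dose change ranged from -0.28 to 1.42, and the largest value came from slide 4, where control replicate 5 lies.

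Keap1, whose product targets NRF2 for degradation, lay on the other side of 0. The control arrays gave log2 ratios of 0.41, 0.25, 0.49, 0.51 and 0.61. At the low dose Keap1 ranged from -0.41 to 0.44 (median 0.29) and at the high dose from -0.40 to 0.34 (median 0.09), and the medium dose arrays read -0.27, 0.12, 0.27, 0.08 and 0.10. At the high dose 5 of 6 arrays were below every control, and at the low dose 3 of 6 were. The change was -0.34 ± 0.10, -0.40 ± 0.11 and -0.46 ± 0.10 (SE), with adjusted p of 0.0795, 0.0304 and 0.00595 in limma. The medium and high dose values passed the adjusted p but stayed below 1.5-fold (1.32-fold and 1.38-fold lower), so Keap1 was not called. Without a slide term, the limma adjusted p of Keap1 was 0.232 at the medium and 0.117 at the high dose. After median centring in place of loess, Keap1 had 0.874 and 0.215. Its within-slide change was below 0 on 4 of 4 slides at each dose, from -0.57 to -0.31 at the high dose.

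Hmox1, the inducible haem oxygenase that opens haem into biliverdin, carbon monoxide and iron, had the largest change of the 10 genes at the medium and high dose. Its brighter probe gave -1.94, -1.28, -1.19, -1.46 and -1.91 in the controls. The medium dose arrays read -1.07, -0.26, -0.17, -0.36 and -0.22, the low dose arrays ran from -1.48 to -0.15 (median -0.52), and the high dose arrays from -0.72 to 0.57 (median -0.16). Every medium and high dose array lay above every control, and at the low dose 5 of 6 did, the exception being low dose replicate 4. Hmox1 rose by 0.80 ± 0.19 (SE), 1.14 ± 0.20 and 1.28 ± 0.19, that is 1.74-fold, 2.21-fold and 2.42-fold, with limma adjusted p of 0.0231, 0.000989 and 0.00015. The low dose call was lost without a slide term (adjusted p 0.0598), with only the control and low dose arrays in the fit (0.0895), after median centring in place of loess (change 0.65, adjusted p 0.329) and when any of control replicates 1, 3 and 5 or low dose replicates 2, 3 and 6 was left out (0.65 to 0.80). That call was also lost in limma without slide 1 (adjusted p 0.149), slide 3 (0.142) or slide 4 (0.127). An ordinary linear model in place of limma lost it too (adjusted p 0.0772). In all, 14 of 42 other settings lost the low dose call of Hmox1. On slide 2 the low dose array did not exceed its control (-0.02), while slide 4 gave 1.36.

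The second probe of Hmox1 is dimmer, with a median Cy5 signal of 5.85 to 12.6 times the local background by group, against 37.9 to 107 times for the brighter probe. On the controls it gave -0.09, -0.11, -0.58, -0.75 and 0.07, and at the medium dose -0.12, 1.03, 0.23, -0.03 and -0.32. The low dose arrays spanned -0.13 to 0.68 (median 0.26) and the high dose arrays -0.58 to 0.83 (median 0.34). The groups overlapped at each dose, and the change was 0.59 ± 0.21 (SE), 0.45 ± 0.21 and 0.59 ± 0.21, with limma adjusted p of 0.143, 0.309 and 0.094. It was not called at any dose with all arrays, although both probes lay above control at each dose. Leaving out low dose replicate 1 and medium dose replicate 2 brought it past the threshold at the low dose (0.70, adjusted p 0.049) and at the high dose (0.60, adjusted p 0.0375), and it was also called at the high dose without control replicate 5 (0.73) or without high dose replicate 4 (0.73).

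Txnrd1 encodes the cytosolic thioredoxin reductase, a selenoenzyme that keeps thioredoxin reduced. Its log2 ratio was 0.18, 0.65, 0.27, 0.29 and 0.15 in the controls and 1.34, 1.49, 0.97, 1.01 and 1.19 at the medium dose. It ran from 0.54 to 1.52 (median 1.06) at the low dose and from 1.18 to 1.75 (median 1.36) at the high dose. Every medium and high dose array lay above every control, as did 5 of 6 low dose arrays; low dose replicate 6 (0.54) was below control replicate 2 (0.65). The increase was 0.73 ± 0.11 (SE), 0.89 ± 0.11 and 1.08 ± 0.11, that is 1.66-fold, 1.85-fold and 2.12-fold, with limma adjusted p of 0.000501, 4.66e-05 and 1.8e-06. Txnrd1 had the smallest adjusted p of the 10 genes at each dose, and it was higher on 4 of 4 slides at each dose, by 0.91 to 1.17 at the high dose. Its low dose call was lost after median centring (0.59, adjusted p 0.386), under which the median of all genes moved by -0.11 at the low dose.

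Srxn1, whose product sulfiredoxin repairs over-oxidised peroxiredoxins, lay above control without being called. The controls gave -0.53, -0.98, -0.66, -0.66 and -0.69, and the medium dose arrays 0.15, -0.32, -0.24, -0.64 and -0.35. Log2 ratios were -0.60 to -0.0061 (median -0.37) at the low dose and -0.44 to 0.14 (median -0.27) at the high dose. All 6 high dose arrays were above every control, while 4 of 6 low dose and 4 of 5 medium dose arrays were. The change was 0.38 ± 0.13 (SE), 0.42 ± 0.13 and 0.55 ± 0.13, with limma adjusted p of 0.128, 0.0662 and 0.00813. The high dose value passed the adjusted p, and its fold of 1.46 was just below 1.5. It was called at the high dose in the processed values that the authors deposited (0.62). Leaving out control replicate 4 (0.60), control replicate 5 (0.59) or high dose replicate 2 (0.60) also gave a call. After median centring in place of loess, the high dose change of Srxn1 was 0.52 and did not pass (limma adjusted p 0.669).

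**Figure D2:**
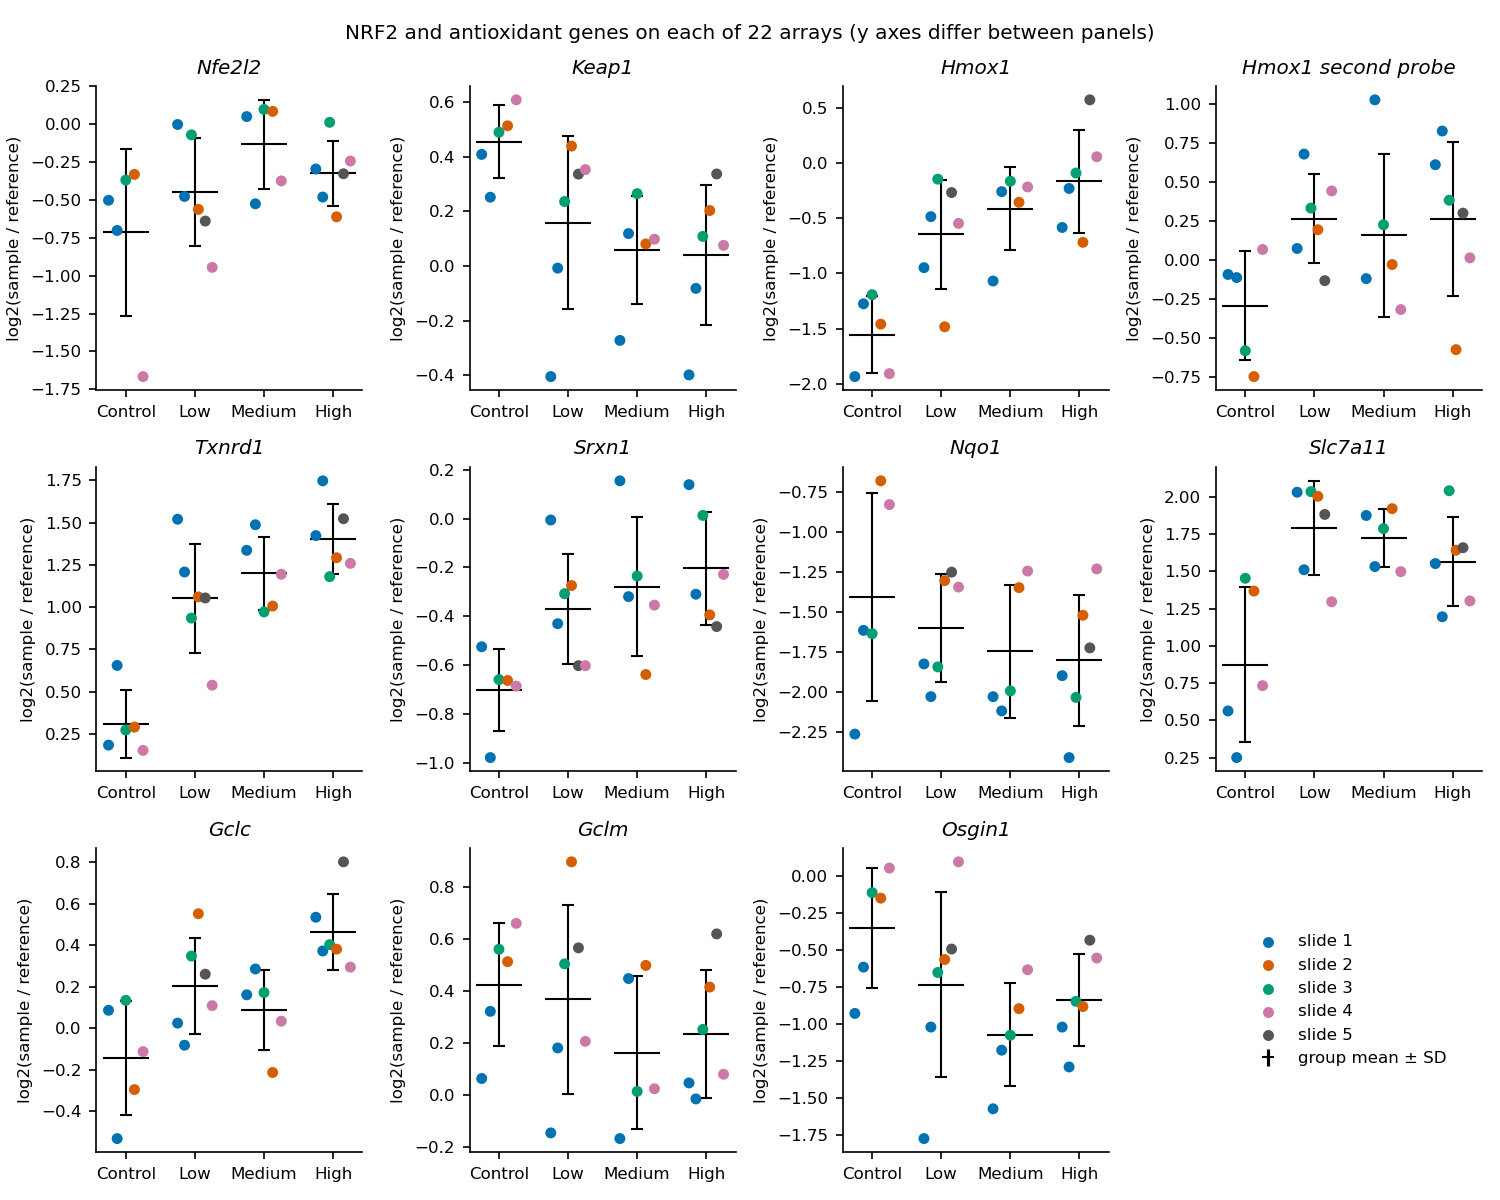
Log2 ratio of sample to reference pool for each probe on each of the 22 arrays (points, coloured by slide) in control, low, medium and high dose groups, with the group mean and SD in black; the y axes differ between panels. Txnrd1 and the brighter probe of Hmox1 separate all medium and high dose arrays from the controls, while Gclm and Nqo1 overlap between groups and differ by slide.

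Nqo1, a flavoprotein that reduces quinones in a single transfer of an electron pair, is often read as a marker of NRF2 activity. Here its log2 ratio lay below control. The controls varied widely, at -2.26, -1.61, -1.64, -0.68 and -0.83, and the medium dose arrays read -2.03, -2.12, -1.99, -1.35 and -1.24. The low dose arrays ranged from -2.03 to -1.25 (median -1.58) and the high dose arrays from -2.41 to -1.23 (median -1.81). The groups overlapped, and arrays of slide 1 and slide 3 read lower than those of slides 2 and 4 in every group. With the slide in the fit, the change was -0.24 ± 0.13 (SE), -0.34 ± 0.13 and -0.44 ± 0.13, with limma adjusted p of 0.439, 0.168 and 0.0344. The high dose value passed the adjusted p but not the fold (1.36-fold lower), and without a slide term it was -0.40 (adjusted p 0.607). It was -0.21 (adjusted p 0.486) in the processed values that the authors deposited and -0.67 (adjusted p 0.0526) in the log ratio of the scanner software, so the size of the change depends on the normalization. The probe is dim, with a median Cy5 signal of 2.68 to 5.28 times the local background. Without slide 1 the high dose change was -0.59 and was called.

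Osgin1, an inhibitor of growth that oxidative stress is known to induce, was the only one of the 10 genes called lower. The controls gave -0.93, -0.62, -0.12, -0.15 and 0.05 and the medium dose arrays -1.58, -1.18, -1.08, -0.90 and -0.64. At the low dose the log2 ratio ranged from -1.78 to 0.09 (median -0.61) and at the high dose from -1.29 to -0.44 (median -0.87). The groups overlapped before the slide was taken into account, since slide 1 was low in every group. Osgin1 changed by -0.45 ± 0.14 (SE), -0.72 ± 0.15 and -0.55 ± 0.14, with limma adjusted p of 0.0993, 0.00386 and 0.0165, and thus fell 1.65-fold at the medium dose. At the high dose it missed the threshold of fold (1.47-fold lower), which it passed without control replicate 1 (-0.60), control replicate 5 (-0.59), high dose replicate 1 (-0.62) or slide 1 (-0.64). Within slides the change lay between -0.96 and -0.60 at the medium dose and between -0.73 and -0.38 at the high dose. The medium dose call was lost without a slide term (adjusted p 0.208), after median centring (-0.65, adjusted p 0.134) and without slide 3 (-0.66, adjusted p 0.0525). At the high dose the limma adjusted p was 0.426 without a slide term and 0.127 after median centring.

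Slc7a11 encodes the transport subunit of the cystine and glutamate exchanger, which brings in cystine for glutathione. Its log2 ratios were 0.56, 0.25, 1.45, 1.37 and 0.73 in the controls and 1.87, 1.53, 1.79, 1.92 and 1.5 at the medium dose. They ran from 1.30 to 2.03 (median 1.94) at the low dose and from 1.19 to 2.04 (median 1.60) at the high dose. All medium dose arrays, 5 of 6 low dose arrays and 4 of 6 high dose arrays lay above every control. Slc7a11 rose by 0.90 ± 0.14 (SE), 0.85 ± 0.15 and 0.67 ± 0.14, that is 1.87-fold, 1.80-fold and 1.59-fold, with limma adjusted p of 0.000807, 0.00106 and 0.00423. It was the only called gene of the 10 whose change was smaller at the high dose than at the low dose, and that difference was not called (-0.23, 95% interval -0.51 to 0.05). The probe is dim, with a median Cy5 signal of 2.34 times the local background in the controls and 2.85 to 3.64 times in the exposed groups, and its Cy5 signal was marked well above background on 4 of 5 control arrays. The Cy3 signal of the pool was so marked on 4 of 5 control, 4 of 6 low dose, 4 of 5 medium dose and 6 of 6 high dose arrays, so the denominator of the ratio was also close to background and the folds are imprecise. The increase was larger on slide 1 (1.36, 1.30 and 0.97) than the fit gave, and without slide 1 it was 0.55 at the medium and 0.46 at the high dose, below 1.5-fold. The high dose call was also lost without control replicate 2 (0.55), and both calls after median centring (0.59 at the medium and 0.48 at the high dose).

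Gclc and Gclm are the catalytic and the modifier subunit of glutamate-cysteine ligase, the rate-limiting enzyme of glutathione synthesis, and they lay on opposite sides of 0. Gclc read 0.09, -0.53, 0.13, -0.30 and -0.11 in the controls, 0.16, 0.28, 0.17, -0.21 and 0.03 at the medium dose, -0.08 to 0.55 (median 0.18) at the low dose and 0.29 to 0.80 (median 0.39) at the high dose. All 6 high dose arrays were above every control and above every medium dose array. The change of Gclc was 0.31 ± 0.13 (SE), 0.23 ± 0.13 and 0.57 ± 0.13, with limma adjusted p of 0.283, 0.466 and 0.00731. Its high dose fold of 1.48 was just below the threshold. It was called there without a slide term (0.61, adjusted p 0.00548) and when 1 of control replicates 1, 3 and 5 or high dose replicates 3 and 6 was left out (0.59 to 0.64). After median centring in place of loess, the high dose change of Gclc was 0.54 and did not pass (limma adjusted p 0.421).

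Gclm read 0.06, 0.32, 0.56, 0.51 and 0.66 in the controls and -0.17, 0.45, 0.01, 0.50 and 0.02 at the medium dose. The low dose arrays ranged from -0.15 to 0.90 (median 0.35) and the high dose arrays from -0.02 to 0.62 (median 0.16). The groups overlapped at each dose. The change was -0.11 ± 0.13 (SE), -0.26 ± 0.13 and -0.25 ± 0.13, with limma adjusted p of 0.785, 0.367 and 0.338, and Gclm passed neither criterion. The 95% interval at the high dose ran from -0.52 to 0.02.

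**Figure D3:**
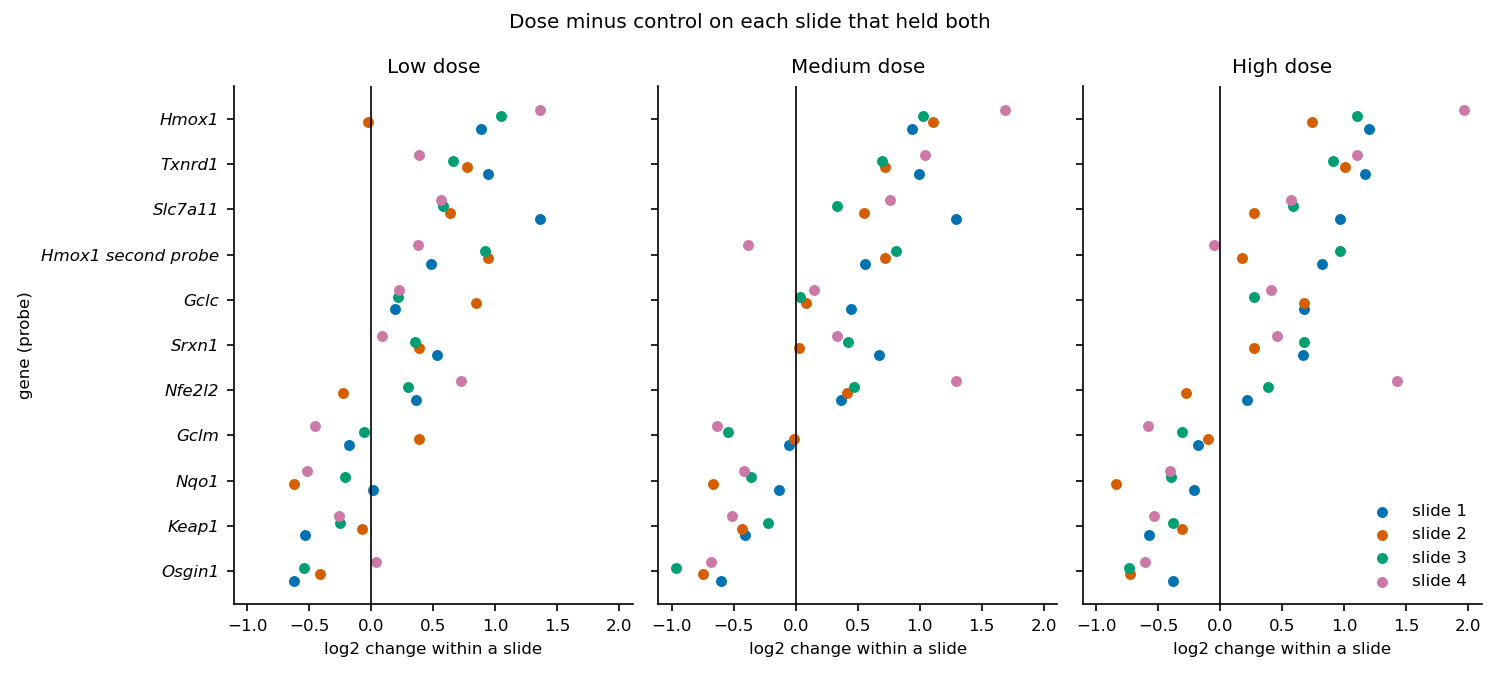
Log2 change of each probe, dose minus control, within each of the 4 slides that held both groups (points, coloured by slide), at the low, medium and high dose. Txnrd1, Slc7a11, Srxn1 and Gclc lie above 0 and Keap1 below 0 on all 4 slides at each dose, and the change of Nfe2l2 at the high dose spreads from -0.28 to 1.42.

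Between the exposed groups, 0 of the 10 genes were called in any of the 3 comparisons. High against low dose called 0.421% of 14235 named genes, and both high against medium and medium against low called 0%. At an unadjusted p of at most 0.05 in limma, 3 of the 10 genes passed between high and low dose, beside 14.7% of all named genes, 1 between high and medium, beside 5.39%, and 0 between medium and low, beside 8.54%, and none of them passed the adjusted p. They were Txnrd1, 0.35 higher at the high than at the low dose (95% interval 0.13 to 0.57, limma adjusted p 0.229), Hmox1, 0.48 higher (0.10 to 0.86, adjusted p 0.423), and Gclc, 0.26 higher than at the low dose (0.01 to 0.52, adjusted p 0.591) and 0.34 higher than at the medium dose (0.06 to 0.61, adjusted p 0.999). The means of Hmox1 and of Txnrd1 were in the order control, low, medium and high, and neighbouring doses were not called different (medium minus low 0.34, 95% interval -0.06 to 0.75, for Hmox1 and 0.16, -0.08 to 0.39, for Txnrd1). For Slc7a11 the 3 exposed means lay within 0.23 of each other.

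Genes whose pattern was most like that of the 3 called genes were found by the root mean square difference of slide-adjusted log2 ratios, each gene set to its control mean, over the 22 arrays and 12226 genes. Nearest to Hmox1 were Ier3 (0.25), Sox4 (0.27) and Siglecg (0.28). Nearest to Txnrd1 were Tbpl1, Hilpda and Rrs1 (0.17 to 0.18), and nearest to Slc7a11 were Zfp420, Pmepa1 and Tars (0.19 to 0.21). None of the 10 NRF2 genes was among these nearest genes of another. With only 3 genes kept for each out of 12226, that cannot show whether the 10 genes moved together.

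Beyond the 10 genes, a list of 83 further genes of the NRF2 pathway and of related roles was read in the same way. The list was grouped by role, and whether NRF2 controls each gene, Chac1, Txnip and the sestrins included, was not tested. It held 76 detected genes for the low, 77 for the medium and 79 for the high dose comparison. Of these, 4, 5 and 8 were called higher and 12, 15 and 16 lower, and the median change was -0.14, -0.14 and -0.12. The calls came to 21.1%, 26% and 30.4% of the detected genes of the list, beside the background shares given above. The wider list, too, was chosen with earlier results of these data known.

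Among the regulators, Sqstm1, which encodes p62, an adaptor of autophagy that competes with NRF2 for KEAP1, rose by 1.01, 1.17 and 1.58 (limma adjusted p 0.00438, 0.000912 and 1.67e-05), beside 1.28 for Hmox1 at the high dose. Maff, a small MAF partner, rose by 0.83 at the high dose (adjusted p 0.000986). Nfe2l3, a relative of Nfe2l2, fell by 0.62 at the medium and 0.76 at the high dose; its probe is dim, detected on 19 of 22 arrays and marked well above background in Cy5 on 3 of 5 controls, so these sizes are imprecise. Of the 11 detected regulators 8 were not called at the high dose, with Mafk at 0.48 (adjusted p 0.141) and Btrc, a ligase adaptor that also marks NRF2 for degradation, at -0.56 (adjusted p 0.00764, below 1.5-fold).

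At the high dose the thioredoxin and peroxiredoxin group held 15 detected genes, with 3 up-regulated and 2 down-regulated. These calls were 33.3% of the group, beside 11.8% of all named genes tested. Txnrd3 rose by 0.71 at the medium and 0.74 at the high dose, and Txnip, an inhibitor of thioredoxin, rose by 0.74 and 0.76. The other 10 detected genes of this group, the peroxiredoxins among them, were not called at the high dose. The sestrins, which are regulators of stress and growth signalling, split, with Sesn2 higher by 1.01, 1.13 and 1.43 (limma adjusted p 4.57e-06 at the high dose) and Sesn1 (-0.77, -1.02 and -1.01) and Sesn3 (-0.96, -1.38 and -1.60) lower at all doses.

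In the glutathione group, Chac1, which breaks glutathione down, rose by 1.78, 1.93 and 2.37 (limma adjusted p 4.04e-08 at the high dose), the largest increase of the list. Ggt1, which cleaves glutathione outside the cell, rose by 0.77 at the low and 0.91 at the high dose. Slc3a2, the heavy chain that pairs with the product of Slc7a11, rose at the high dose (0.92, adjusted p 0.0114), and its values of 0.63 at the low and 0.54 at the medium dose were not called. The largest decreases, of the peroxidase Gpx7 (-0.68 at the high dose, adjusted p 0.0903) and of glutathione reductase (Gsr, -0.43, adjusted p 0.0227), were not called, and 0 genes of this group were called lower at any dose.

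The enzymes that conjugate or reduce foreign compounds and the exporters that remove the products were called in 1 direction. Of 21, 22 and 23 detected genes of this group, 0 were called higher at any dose. Called lower were 8 at the low, 10 at the medium and 11 at the high dose (38.1%, 45.5% and 47.8%). Of all named genes tested, 3.02%, 4.64% and 6.38% were called lower and 2.17%, 4.2% and 5.38% higher. The median change of the group was -0.61, -0.49 and -0.50. At the high dose Aox1, an aldehyde oxidase, fell by 2.08 (limma adjusted p 4.82e-07), the microsomal glutathione transferase Mgst1 by 1.89 (adjusted p 2.23e-09), and the exporter Abcc3 by 1.64 (adjusted p 4.29e-07). The glutathione transferases Gsta3 (-1.51), Gsta4 (-1.11), Gstm1 (-0.85), Gstm2 (-0.93) and Gstm3 (-1.06) were also lower at the high dose, as were Nqo2, the paralogue of Nqo1 (-1.07), Ptgr1 (-0.77) and Ephx1 (-0.69). Glutathione transferase paralogues are similar in sequence and a probe may bind more than 1 of them, so the values of single members are uncertain. At the other end were Akr1b3 (0.64 at the high dose, adjusted p 0.507), Cbr3 (0.58, adjusted p 0.0823) and the exporter Abcc1 (0.48, adjusted p 0.00167), which were not called.

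In the smaller groups, Idh1, which makes NADPH in the cytosol, fell by 0.95, 1.18 and 1.34 (limma adjusted p 1.34e-06 at the high dose), while G6pdx, Pgd, Taldo1, Tkt and Me1 were not called at any dose. Of 8 genes of haem and iron, Slc48a1, a haem transporter, fell at the medium dose (-0.62). Ferritin light chain (Ftl1) lay above control at the high dose (0.56, adjusted p 0.00107) but below 1.5-fold, as did the iron exporter Slc40a1 (0.52, adjusted p 0.0126), and the constitutive haem oxygenase Hmox2 was not called (-0.61, adjusted p 0.249). Sod1 fell at the low dose (-0.76, adjusted p 0.0344) and gave -0.25 and -0.35, not called, at the other doses, Sod3 fell at the high dose (-0.68, adjusted p 0.025), and Sod2 and Cat were not called. For comparison, the reference genes Hprt, Gapdh and Actb changed by 0.39, -0.31 and 0.06 at the high dose and were not called.

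**Figure D4:**
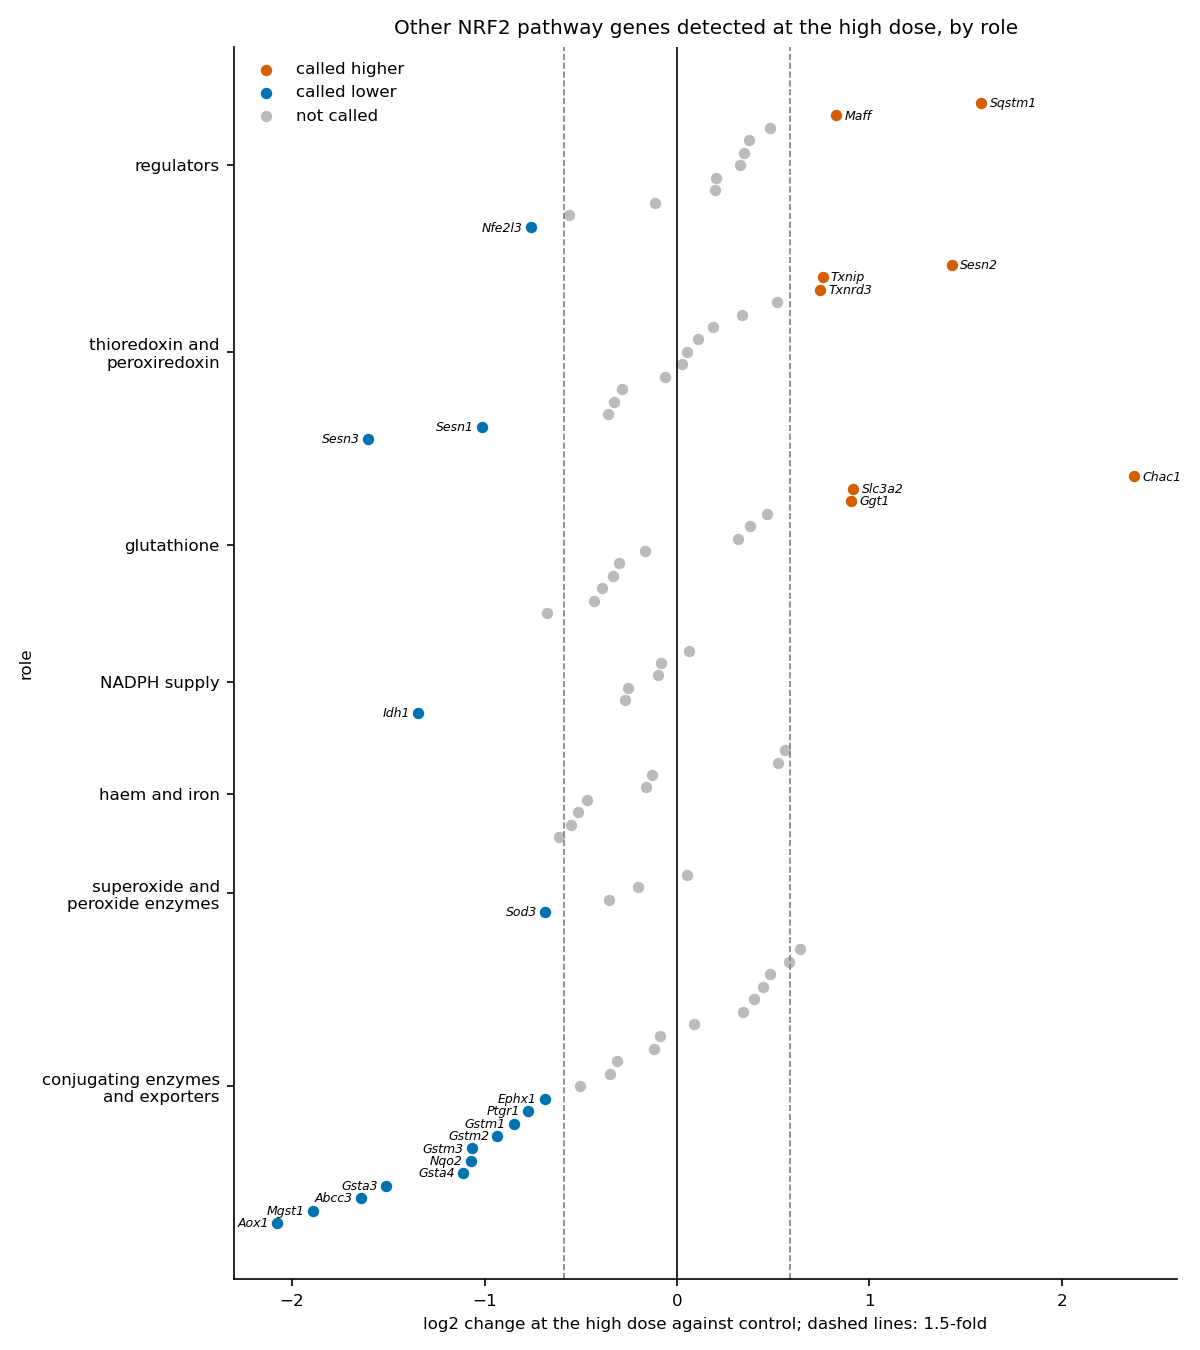
Log2 change at the high dose against control (x axis) of the 79 detected genes of the wider NRF2 list, sorted within their roles; orange points were called higher, blue points lower and grey points were not called, and the dashed lines mark a 1.5-fold change. Chac1 (2.37) and Sqstm1 (1.58) stand at the right, and 11 of 23 conjugating enzymes and exporters stand at the left with none called at the right. Of all named genes tested, 6.38% were called lower and 5.38% higher.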

How the data were processed

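Groups, doses and replicate numbers were read from the labels; per the labels Cy5 carried the sample and Cy3 the reference pool on every array, with no dye swap. The members, the wider gene lists and the tests were chosen with earlier results of these data known.

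The deposited scanner files give each spot's median intensity in both channels, extracted by the authors without normalization, 0 or 1 marks, and a log10 ratio of the scanner software. Per the file headers the software was Feature Extraction 10.7.3.1. The authors' series matrix holds log2 ratios by a normalization not given in the sources used here; each of its 22 columns correlated best with its own array (lowest 0.846) and column medians were 0.0043 to 0.027.

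In R 4.3.3 with limma 3.58.1, the 3671 control spots were left out, outlier-marked spots set to missing, log2(Cy5/Cy3) normalised by loess without background subtraction, and spots of a probe combined by the median. The 11 NRF2 gene probes had values on all 22 arrays. Group and slide were fitted over 22 arrays (lmFit, eBayes), limma standing in for the shrinkage test of the study's methods, which was not installed. A probe was detected when its Cy5 signal was over 3 trimmed SDs above the trimmed mean (5% from each end) of the 308 negative control spots. A gene is given by its brightest probe. The fit was tested on simulated data. Replicate numbers were checked for pairing: deviations of same-numbered control and dose arrays correlated in all 15 pairs (0.225 to 0.856), of which 13 lay on the same slide. Genes of the wider list are named where called at a dose, or among the 3 highest or the 3 lowest changes of their role at the high dose. Names come from accessions matched to a RefSeq table (26413 of 55681 probes).

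Signal is not a count, so array number and signal over background limit precision. Alternatives were other normalizations, deposited ratios, fits, thresholds and leaving out arrays or slides.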

Additional observations from a re-analysis of the deposited data

Results flagged for a closer look

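Within groups of 5 or 6 arrays, the highest or lowest log2 ratio was compared with the rest for each of the 11 probes. Of 44 groups tested, 3 (6.82%) held an array whose gap to the nearest other was above Dixon's 95% critical value, and chance alone gives about 1 in 20. Nfe2l2 read -1.67 on control replicate 5, beside -0.70 to -0.33 on the other controls. The brighter probe of Hmox1 read -1.07 on medium dose replicate 1, beside -0.36 to -0.17 on the other medium dose arrays. These ratios were not adjusted for slide or replicate number. On slide 1, replicate 1 of Hmox1 read below replicate 2 in every group. From control to high dose the values were -1.94, -0.95, -1.07 and -0.58, against -1.28, -0.49, -0.26 and -0.23. Txnrd1 read 0.65 on control replicate 2, beside 0.15 to 0.29 on the other controls.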

How the results depend on the processing

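The 33 changes (11 probes at 3 doses) were recomputed in 42 other settings, giving 1386 values. None changed sign, 29 lost and 34 gained a call. With no test, slide 2 alone gave -0.024 for Hmox1 at the low dose, the only called change that turned direction within a slide. The calls among the 10 genes (3 at low, 4 at medium and 3 at high dose) became 0 and 1 at the low and medium dose with a threshold of 2-fold, 1 and 2 there with median centring, 8 at the high dose with no threshold of fold, and 5 at the high dose with the replicate block in place of the slide, which changed the calls of no other dose. Leaving out 1 array gave 2 to 3, 4 to 5 and 2 to 6 calls, and 0 to 0 between exposed doses, where the calls stayed at 0 in every setting run. The 6 at the high dose came without control replicate 5 and the 5 without control replicate 1; the cause was not tested. Without slide 1, the groups left with 3 arrays had to be detected on all 3. The setting without low dose replicate 1 and medium dose replicate 2 was chosen after seeing the data.

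Over all named genes the calls (707 at low, 1185 at medium and 1648 at high dose) became 193, 325 and 500 at 2-fold, 1305, 1966 and 2883 with no threshold of fold, 305, 436 and 871 with median centring, and 468 at the low dose with only the compared groups in the fit. Median centring also moved the share of calls that were higher from 41.7% to 16.4%, from 47.5% to 36.5% and from 45.8% to 30.8%, and at the medium dose called 2 of the 10 genes higher and 0 lower, against 3 and 1. Dim signal limits Slc7a11 and Nqo1 most.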
